A study of Mus musculus with 68 samples.

Results

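NMDA and AMPA receptor subunits are the genes of the main ionotropic receptors through which cortical neurons respond to glutamate. The set holds 10 genes found by symbol among the 18088 genes of the deposited table: 6 NMDA receptor subunits (Grin1, Grin2a, Grin2b, Grin2c, Grin2d and Grin3a) and 4 AMPA receptor subunits (Gria1, Gria2, Gria3 and Gria4). All 10 passed the filter on low values. The tissue was prefrontal cortex, taken from C57BL/6J mice that were either heterozygous for Adnp (labelled HT) or wild type (WT), and its RNA was sequenced. Adnp encodes a chromatin-binding protein that is mutated in a syndromic form of autism. Pups had received fluoxetine (a serotonin reuptake inhibitor), lithium (a mood stabilizer) or vehicle through the milk of their mother from postnatal day 3 to day 24, and tissue was taken on day 25.

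There were 68 libraries in 12 groups. Fluoxetine had 10 HT and 10 WT libraries, with 5 of each sex in both genotypes. Lithium had 9 from HT mice (4 female, 5 male) and 8 from WT mice (5 female, 3 male). Vehicle had 16 from HT mice (8 of each sex) and 15 from WT mice (8 female, 7 male). The labels name the mutant allele no further than heterozygous, and they do not say that each library is a separate animal, so p-values measure the spread between libraries. No litter is named in the sample titles either. A drug given through the mother is shared by all pups of her litter. Libraries of litter mates would not be independent for a drug, and the main tests take every library as independent. In tissue RNA, fewer cells of a type and less RNA per cell cannot be told apart.

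An NMDA receptor joins 2 copies of the obligatory subunit made from Grin1 with 2 others, most often those of Grin2a or Grin2b. In rodent forebrain Grin2b is abundant from before birth, and Grin2a gains ground after birth. Grin2c and Grin2d are minor subunits in adult cortex, and Grin3a makes receptors with little calcium entry that are common in young synapses. AMPA receptors carry most of the fast current, are assembled from the Gria1 to Gria4 products, and keep calcium out when they hold an RNA-edited Gria2 subunit.

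The sequences just upstream of 4 members are shown, for the reasons that follow. Gria2 and Gria4 varied together across libraries, and Grin1 had the highest level per length. Grin2c followed the marker lists of oligodendrocyte precursors, endothelium and astrocytes. RefSeq's promoter table on GRCm38.p6 held 5 of the 10 members, and Grin2d is not shown because its entry lies inside the longer annotated gene. Each line gives the 250 bases before the start, 5′ to 3′ on the minus strand. Capitals mark GGGCGG (GC box) and TGACG (the core of a cAMP response element), each searched on both strands.
Grin1, chr2:25319188-25319437: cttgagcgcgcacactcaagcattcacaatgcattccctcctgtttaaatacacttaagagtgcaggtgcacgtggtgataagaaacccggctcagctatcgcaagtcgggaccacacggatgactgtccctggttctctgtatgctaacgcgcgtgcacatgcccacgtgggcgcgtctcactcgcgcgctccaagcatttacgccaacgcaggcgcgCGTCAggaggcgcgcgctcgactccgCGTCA
Grin2c, chr11:115267244-115267493: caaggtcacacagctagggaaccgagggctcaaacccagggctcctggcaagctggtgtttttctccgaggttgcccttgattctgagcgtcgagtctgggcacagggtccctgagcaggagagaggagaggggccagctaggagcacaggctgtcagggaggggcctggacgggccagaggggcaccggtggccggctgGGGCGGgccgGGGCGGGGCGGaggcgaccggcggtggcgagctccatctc
Gria2, chr3:80802836-80803085: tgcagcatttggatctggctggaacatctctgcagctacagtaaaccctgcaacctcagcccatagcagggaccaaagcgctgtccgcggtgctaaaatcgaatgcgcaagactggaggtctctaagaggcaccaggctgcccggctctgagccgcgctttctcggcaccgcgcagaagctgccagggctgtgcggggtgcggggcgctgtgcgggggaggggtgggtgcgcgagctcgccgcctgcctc
Gria4, chr9:4796235-4796484: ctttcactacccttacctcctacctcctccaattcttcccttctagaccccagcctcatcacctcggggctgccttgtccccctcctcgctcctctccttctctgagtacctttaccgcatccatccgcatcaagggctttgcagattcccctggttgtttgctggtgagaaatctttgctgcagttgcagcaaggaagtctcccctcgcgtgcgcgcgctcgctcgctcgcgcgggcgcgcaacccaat
Grin2c held 3 GC boxes, of which the last pair overlap. Grin1 held 2 such cores, both as CGTCA. Neither motif was found in these windows of Gria2 and Gria4. Of 32851 promoters of the same table, 32.7% held a GC box and 17.8% held the cAMP response core. The GC content was 68.8% for Grin2c, 64.8% for Gria2 and 58.8% for both Grin1 and Gria4, beside a median of 52.4% over the table.

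The libraries held 22.4M to 37.5M reads (median 30.7M, M for mega). They were divided into 3 sets by the levels of 361 pseudogenes. The labels do not name these sets, and their number was set for the clustering rather than found by it. Every fluoxetine library was in set 1, of 28 libraries, whose other 8 were HT vehicle. Every lithium library was in set 2, also of 28, with 6 HT vehicle and 5 WT vehicle libraries. The 12 libraries of set 3 were 2 HT vehicle and 10 WT vehicle ones. Each comparison was therefore also fitted within 1 set wherever a set holds both sides. Not every value of those fits is printed. Cortical markers were high in every library: Slc17a7, the vesicular transporter of cortical excitatory neurons, stood at 33346 to 61822 normalized counts. Markers of the neighbouring olfactory bulb varied more, and the summed level of the 10 measured of 11 listed was 5346 in the lowest library and 35516 in the highest. Doc2g, a gene of bulb output neurons, ranged from 41.4 to 7092 normalized counts. Adnp averaged 2261 ± 285 normalized counts in HT vehicle libraries (SD, n = 16) and 1829 ± 361 in WT vehicle libraries (SD, n = 15). The labels do not say what the mutant allele does to the transcript, so this level does not check the genotype labels.

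Normalized counts, which are read counts divided by 1 factor per library, were divided by exon length to compare genes with each other. Grin1 stood at 1758 normalized counts per kb of exon and Gria1 at 1642 per kb, as means over 68 libraries. Grin1 was above Gria1 in 49 of 68 libraries, so the order of this pair was not fixed. Gria2 followed with 1151 per kb, Gria3 with 893 per kb and Grin2b with 746 per kb. Gria2 exceeded Gria3 in all 68 libraries, and Gria3 exceeded Grin2b in 62. Gria4 stood at 515 per kb, below Grin2b and above Grin2c in every library. Grin2c (336 per kb) and Grin2a (315 per kb) were close, with Grin2c higher in 45 libraries. Grin3a stood at 129 per kb and Grin2d at 84.3 per kb, and Grin3a was the higher of the pair in 66 libraries.

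**Figure D1:**
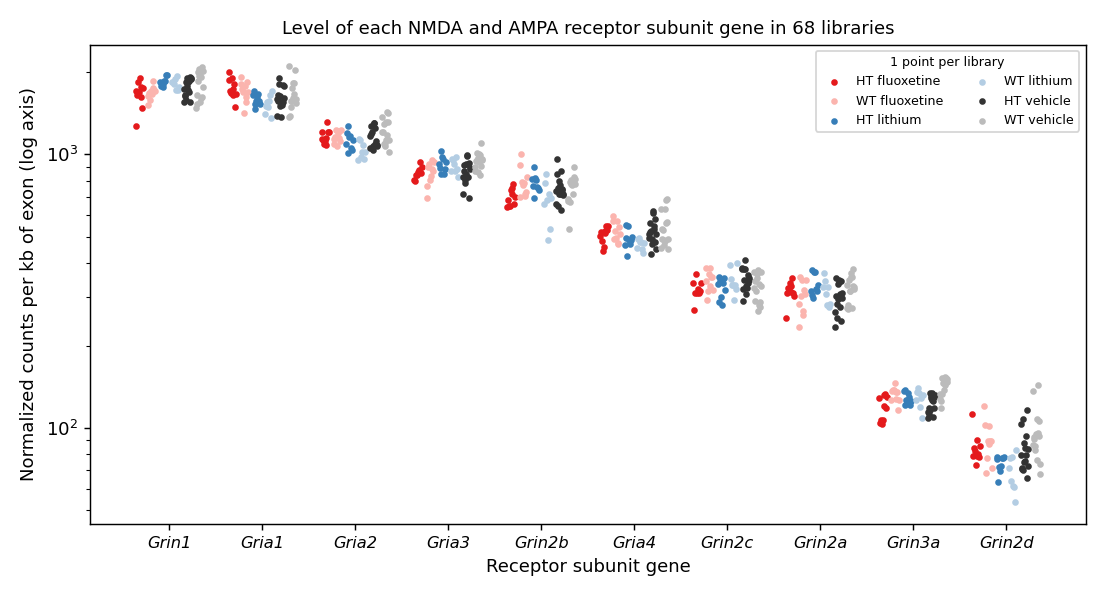
Level of each subunit gene in every library, in normalized counts per kb of exon on a log axis, coloured by genotype and drug. Grin1 and Gria1 lead with means of 1758 and 1642 per kb, and Grin2d is lowest with 84.3 per kb and the widest spread for its level.

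Grin2b, the early partner of Grin1, remained above Grin2a, its later counterpart, at this age. The log2 ratio of Grin2a over Grin2b in normalized counts averaged -1.61 ± 0.11 in HT fluoxetine libraries (SD, n = 10) and -1.86 ± 0.19 in WT fluoxetine libraries (SD, n = 10). It averaged -1.70 ± 0.08 in HT lithium (n = 9) and -1.55 ± 0.17 in WT lithium libraries (n = 8). It averaged -1.80 ± 0.17 in HT vehicle (n = 16) and -1.69 ± 0.12 in WT vehicle libraries (n = 15). These vehicle means join libraries that clustering on pseudogene levels, described below, put into 3 sets. The HT vehicle mean was -1.92 in set 1, -1.71 in set 2 and -1.58 in set 3. The WT vehicle mean was -1.75 in set 2 and -1.66 in set 3, so within set 2 the order of the genotypes was the other way. The ranges of all 6 combinations overlapped, and no test was made of this ratio. The ratio takes no account of exon length, which is greater for Grin2b.

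The members differed in how steady they were. Grin2d had a coefficient of variation of 19.9% over all libraries and spanned 358 to 958 normalized counts, a 2.68-fold range. The other 9 lay between 8.59% for Gria3 and 12.2% for Grin2b. After each group's mean was subtracted, Grin2a and Gria3 varied together over the 68 libraries (Pearson's r = 0.79 on log2 values). Gria2 and Gria4 also varied together (r = 0.67, and 0.49 once the means of library sets within groups were subtracted too). So did Grin2a and Grin2b (r = 0.62, and 0.66 after set means). Grin2d ran against Gria3 (r = -0.64) and Grin2a (r = -0.62). These libraries share depth and tissue makeup, and the coefficients are descriptions.

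Markers of cell types and tissues moved with some members. Grin2d, which in cortex is known from interneurons, rose and fell with the interneuron list (r = 0.80) and with the olfactory bulb list (r = 0.73). Among single markers, chosen after their values were seen, Grin2d followed Dlx1 (r = 0.80) and Doc2g (r = 0.74). It ran against the markers of cortical interneurons Lhx6 (r = -0.67), Pvalb (r = -0.67) and Sst (r = -0.57). Gria1 behaved alike, with r = 0.69 for the bulb list, 0.79 for Gad1 and -0.77 for Pvalb. Gria3 and Grin2a followed the excitatory neuron list (r = 0.86 and 0.73). Grin2c, a subunit also known from astrocytes, followed the lists of oligodendrocyte precursors (r = 0.71), endothelium (r = 0.63) and astrocytes (r = 0.61). Among single astrocyte markers Grin2c followed Aldh1l1 (r = 0.56) and not Aqp4 (r = 0.03). Grin3a followed none of the 13 lists, with r between -0.21 and 0.25.

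**Figure D2:**
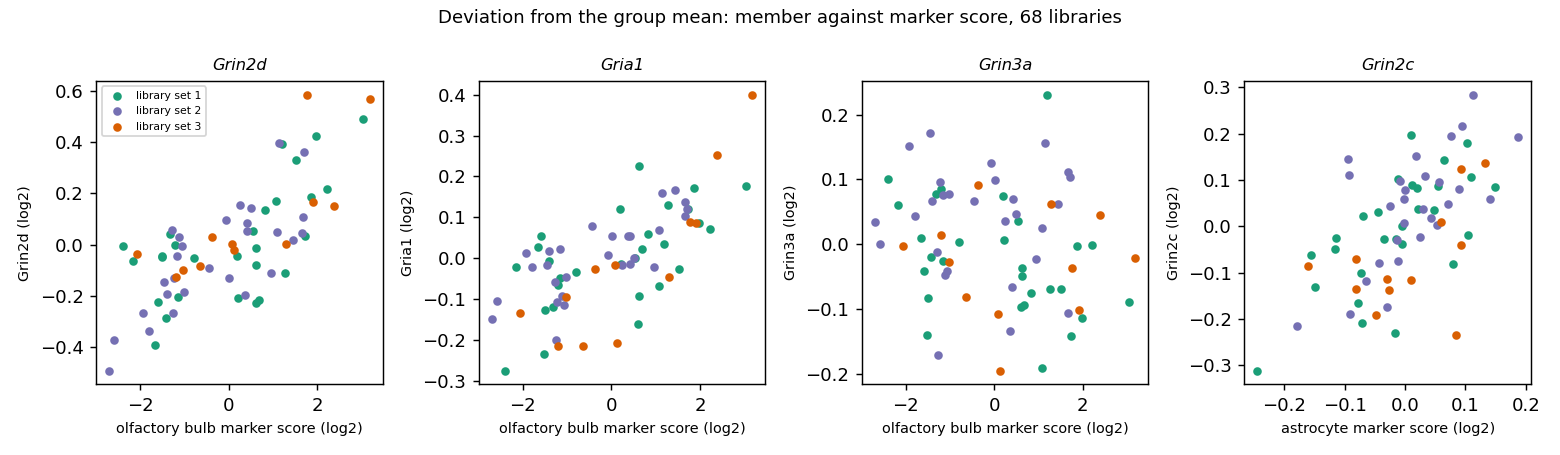
Deviation of 4 members from their group mean (vertical, log2) against the deviation of a marker list's mean (horizontal, log2), 1 point per library, coloured by library set. Grin2d and Gria1 climb with the olfactory bulb score (r = 0.73 and 0.69), Grin3a has r = -0.19, and Grin2c climbs with the astrocyte score (r = 0.61).

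The 3 genes most like each member, were ranked by the same r over 68 libraries among 12515 genes. Grin3a was closest to Sptbn1 (r = 0.83), Ank2 (0.75) and Pcnx (0.71), the first pair of which encode parts of the membrane skeleton. Gria3 was closest to Chl1 (0.92), Cnksr2 (0.91) and Pgm2l1 (0.89), and those of Grin2a included Thrb (0.87) and Lpgat1 (0.86). Gria2 was closest to Bicd1 (0.93), Cpeb4 (0.91) and Slitrk4 (0.91), and Gria4 to Hdac9 (0.87), Fgf12 (0.86) and Stxbp6 (0.86). Grin1 was closest to Pacs1 (0.89), Atp6v0a1 (0.88) and Nlgn2 (0.87), and Grin2b to Gabrb2 (0.81), Zyg11b (0.81) and Pclo (0.81). Grin2d was closest to Sema4g (0.91), Sema6c (0.90) and Gpr153 (0.90), and Gria1 to Kcnd3 (0.86), Nos1 (0.86) and Tiam1 (0.86). Grin2c stood apart from these with Bcan (0.82), Lrp4 (0.82) and Plxnb1 (0.79), of which Bcan encodes brevican, a matrix proteoglycan made largely by glia.

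Under vehicle, the comparison of HT with WT mice asks what the Adnp genotype does without a drug. Over all libraries genotype and library set are partly joined here. Set 1 holds 8 HT vehicle libraries and no WT vehicle library, and set 3 holds 10 WT vehicle libraries and 2 HT vehicle ones. Grin3a and Gria3 fell in HT libraries and the other 8 members did not pass the test, so 2 of 10 members were called, both lower. Of all 17922 genes tested 15.0% were called and 7.21% were called lower, so the members' count is close to the background. Tests used limma on log2(value + 1), with an adjusted p under 0.05 as the threshold. The median difference of the 10 members was -0.07 on the log2 scale, beside -0.01 over all genes.

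Grin3a (chr4:49661611-49845744, minus strand) had a lowest value of 1339.5, a median of 1551 and a highest value of 1645 normalized counts in HT vehicle libraries. In WT vehicle libraries its lowest value was 1448.5, its median 1792 and its highest value 1890. The HT libraries sat lower as a group, and the ranges overlapped. The log2 difference was -0.20 ± 0.04 (SE, limma adjusted p = 7.1e-05), or 0.871-fold. The HT vehicle libraries themselves averaged 1419 in set 1 and 1608 in set 2. The WT vehicle libraries averaged 1833 in set 2 and 1683 in set 3. The part of the sets in the difference over all libraries was not tested. Within set 2 the 6 HT libraries ran from 1578 to 1645 with a median of 1610. The 5 WT libraries of that set stood at 1792, 1811, 1841.5, 1855 and 1867. No HT library of set 2 reached a WT library, and the difference was -0.19 ± 0.05 with a limma adjusted p of 0.071, where 0.536% of genes were called. Within the males of set 3 the 2 HT libraries had 1557 and 1643 normalized counts, and the 5 WT libraries had 1687, 1765, 1807, 1869 and 1890. That difference was -0.17 ± 0.07 (limma adjusted p = 0.22), the groups again did not overlap, and this comparison was chosen after seeing the data. The libraries that overlapped were WT females of set 3, with 1448.5, 1539, 1567, 1627 and 1635 normalized counts. Set 3 holds no HT female with which to compare them.

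**Figure D3:**
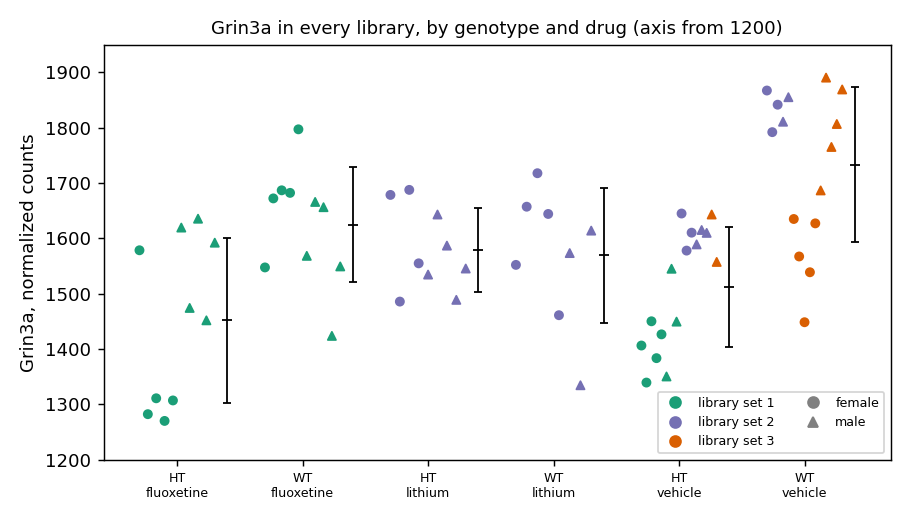
Grin3a in normalized counts (axis not from 0) in each library by genotype and drug, coloured by library set, with circles for females and triangles for males, and the mean ± SD beside each column. HT vehicle libraries of set 2 (1578 to 1645) lie below the WT vehicle libraries of that set (1792 to 1867), and 4 of the 5 female HT fluoxetine libraries lie between 1270 and 1311.

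The difference of Grin3a was -0.17 in females (limma adjusted p = 0.066) and -0.23 in males (adjusted p = 0.0047). The difference between the sexes was -0.06 (adjusted p = 0.97), and no member passed this test, as for 0% of all genes, with 0 members and 662 genes at an unadjusted p under 0.05, and edgeR called 0. The members' differences between the sexes, male minus female, ran from -0.21 for Grin2b to 0.08 for Grin1. With 8 marker scores as covariates Grin3a remained lower, at -0.12 (limma adjusted p = 0.012), and with the bulb score alone it stood at -0.20 (adjusted p = 3.8e-05).

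Gria3 (chrX:41400854-41678601, plus strand), an X-linked AMPA subunit, had 6837, 8634.5 and 9789 normalized counts as its lowest, median and highest values in HT vehicle libraries. In WT vehicle libraries these values were 8279.5, 9369 and 10872. The ranges overlapped widely. The log2 difference was -0.14 ± 0.04 (limma adjusted p = 0.018). Within set 2 it was -0.12 ± 0.07 and did not pass (adjusted p = 0.98). The summed level of the excitatory neuron list had medians of 198520 in HT vehicle and 199110 in WT vehicle libraries. Gria3 follows the mean log2 level of that list, in which each gene counts alike. A sum is led by its highest genes, so these medians do not compare that mean between genotypes. The part of the list in the result was not tested.

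Of the members that did not pass, Grin2c had a difference of 0.11 (95% interval 0.01 to 0.21, limma adjusted p = 0.11) and Grin2d one of -0.19 (-0.36 to -0.02, adjusted p = 0.12). Grin2a differed by -0.12 (adjusted p = 0.15), Grin1 by -0.04 (-0.13 to 0.05) and Grin2b by -0.01 (-0.13 to 0.10). Of the AMPA subunits Gria2 differed by -0.09, Gria4 by -0.06 and Gria1 by -0.04. Grin2d stood at 0.07 within set 2, against the direction over all libraries. Without HT vehicle female 4 Grin2c passed (0.13, limma adjusted p = 0.047). Without WT vehicle male 7 Grin2c (0.13, adjusted p = 0.037) and Grin2d (-0.23, adjusted p = 0.043) passed, and without WT vehicle male 6 Gria2 did (-0.11, adjusted p = 0.039).

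Other genes of the pathway were taken from lists, whose counts stand beside the same 15.0% of all genes called and 7.21% called lower. Of 20 AMPA receptor auxiliary and assembly genes, 1 was higher and 4 were lower in HT vehicle libraries. The higher one was Cnih3, a cornichon that accompanies AMPA receptors (0.23, limma adjusted p = 1.1e-04). The lower ones included Shisa9 (-0.24, adjusted p = 4.6e-04) and Cacng3 (-0.18, adjusted p = 0.011), which also bind the receptor and change its gating. Of 25 postsynaptic scaffold genes 5 were lower, among them Neto1 (-0.18), Dlgap1 (-0.11) and Dlg2 (-0.11). Of 7 kainate and delta receptor genes Grik4 was higher (0.24), and Grik2 (-0.14) and Grik1 (-0.18) were lower. Of 7 metabotropic receptor genes Grm7 (-0.11) and Grm5 (-0.11) were lower. None of these genes passed within set 2. The differences there were smaller for Cnih3 (0.09), Shisa9 (-0.06), Cacng3 (-0.08), Neto1 (-0.11), Dlgap1 (-0.01), Dlg2 (-0.07), Grik4 (0.02), Grik2 (-0.03) and Grik1 (-0.05). For Grm5 (-0.10) and Grm7 (-0.15) they were near those over all libraries.

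Under fluoxetine, the comparison of HT with WT mice lies wholly within set 1. Grin3a alone of the 10 members was called, lower in HT, where 1.98% of all genes were called and 0.653% were lower. The log2 difference was -0.17 ± 0.05 (limma adjusted p = 0.029), and in the fit by library set it had a smaller error, at -0.17 ± 0.04 (adjusted p = 0.0035, where 2.85% of genes were called). In females Grin3a had 1270, 1282, 1307, 1311 and 1578.5 normalized counts in HT fluoxetine libraries. The WT fluoxetine females had 1547.5, 1672, 1682, 1687 and 1797. All but 1 of the HT females lay below every WT female. In males the HT fluoxetine libraries had 1452, 1474, 1592, 1619.5 and 1635.5, and the WT fluoxetine libraries had 1424, 1549, 1568, 1656 and 1666. The male groups overlapped throughout. The difference was -0.32 in females (limma adjusted p = 0.0018) and -0.02 in males (adjusted p = 0.98). The difference between the sexes was 0.30 ± 0.09, male minus female, and did not pass (adjusted p = 0.10).

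The Grin3a call under fluoxetine was lost in 9 of 20 fits that left out 1 library, with differences of -0.16 to -0.15 (limma adjusted p 0.055 to 0.070). The libraries were HT fluoxetine females 2, 3, 4 and 5, HT males 2 and 4, WT female 5 and WT males 2 and 3. With the 8 marker scores as covariates the difference shrank to -0.02 (limma adjusted p = 0.91). The summed oligodendrocyte precursor list, 10 of 10 measured, ran from 8729 to 10795 in HT fluoxetine libraries and from 9528 to 12942 in WT fluoxetine libraries. It was not the only list of the 8 to differ. Mean sums were also lower in HT for the astrocyte, myelinating oligodendrocyte, microglia and endothelial lists. The interneuron list had a lower mean sum in HT (43325 against 43910) and a higher median (42148 against 38777). Mean sums were higher in HT for the choroid plexus and striatal lists. The HT choroid plexus sums had a mean of 439, a median of 268 and a highest value of 1858. The scores are mean log2 levels, in which each gene counts alike, so these sums do not compare the scores. The part of any list in the result was not tested. With the bulb score alone Grin3a differed by -0.16 (adjusted p = 0.019).

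Grin2b, at 17302 ± 1228 normalized counts in HT fluoxetine libraries and 19715 ± 2425 in WT fluoxetine libraries (SD, n = 10 each), differed by -0.18 and did not pass (limma adjusted p = 0.24). Grin2c (-0.11), Grin2d (-0.08), Grin1 (-0.02) and Grin2a (0.07) did not pass either. Gria4 differed by -0.05, Gria1 by 0.04, and Gria2 and Gria3 by 0.01 each. The AMPA subunits' 95% intervals ran no lower than -0.17 and no higher than 0.16. In the lists, Cnih3 was higher in HT under fluoxetine and was the 1 of 20 auxiliary genes called. It ran from 2904 to 3510.5 normalized counts in HT fluoxetine libraries (median 3071.5) and from 2120 to 3025 in WT fluoxetine libraries (median 2482.5), with little overlap. The difference was 0.30 ± 0.05 (limma adjusted p = 1.1e-04), and it was 0.26 (adjusted p = 2.8e-04) with the marker scores. Adarb1, whose enzyme edits glutamate receptor transcripts, was lower, the 1 of 3 editing enzymes called. It averaged 6496 ± 369 normalized counts in HT fluoxetine libraries and 7470.5 ± 594 in WT fluoxetine libraries (SD, n = 10 each). That difference was -0.20 ± 0.05 (adjusted p = 0.0049), and it did not pass with the marker scores (-0.13, adjusted p = 0.088).

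Under lithium, HT and WT libraries all belong to set 2, and no member passed, beside 2.51% of all genes. At an unadjusted p under 0.05 there were 2 members (2766 genes in all), and edgeR also called 0. Grin2b came closest, with 17138, 19016 and 22383 normalized counts as its lowest, median and highest values in HT lithium libraries. In WT lithium libraries it had 12084, 17041 and 21060. The ranges overlapped, and the lowest WT values were 12084 and 13252. The difference was 0.25 ± 0.08 (limma adjusted p = 0.090), and it passed without WT lithium female 3 (0.29, adjusted p = 0.039). Grin3a, lower in HT under the other treatments, stood at 1578 ± 76.1 normalized counts in HT lithium libraries (SD, n = 9) and 1569 ± 122 in WT lithium libraries (SD, n = 8). Its difference was 0.02, with a 95% interval of -0.07 to 0.12. Gria2 (0.12, 95% interval 0.01 to 0.24), Grin2d (0.13), Grin2a (0.10), Gria4 (0.07), Gria1 (0.05), Gria3 (0.03), Grin1 (0.02) and Grin2c (-0.09) made up the rest. In the lists Glul, the glutamine synthetase of astrocytes, was lower in HT (-0.17, adjusted p = 0.039), the 1 of 14 transporter and enzyme genes called.

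**Figure D4:**
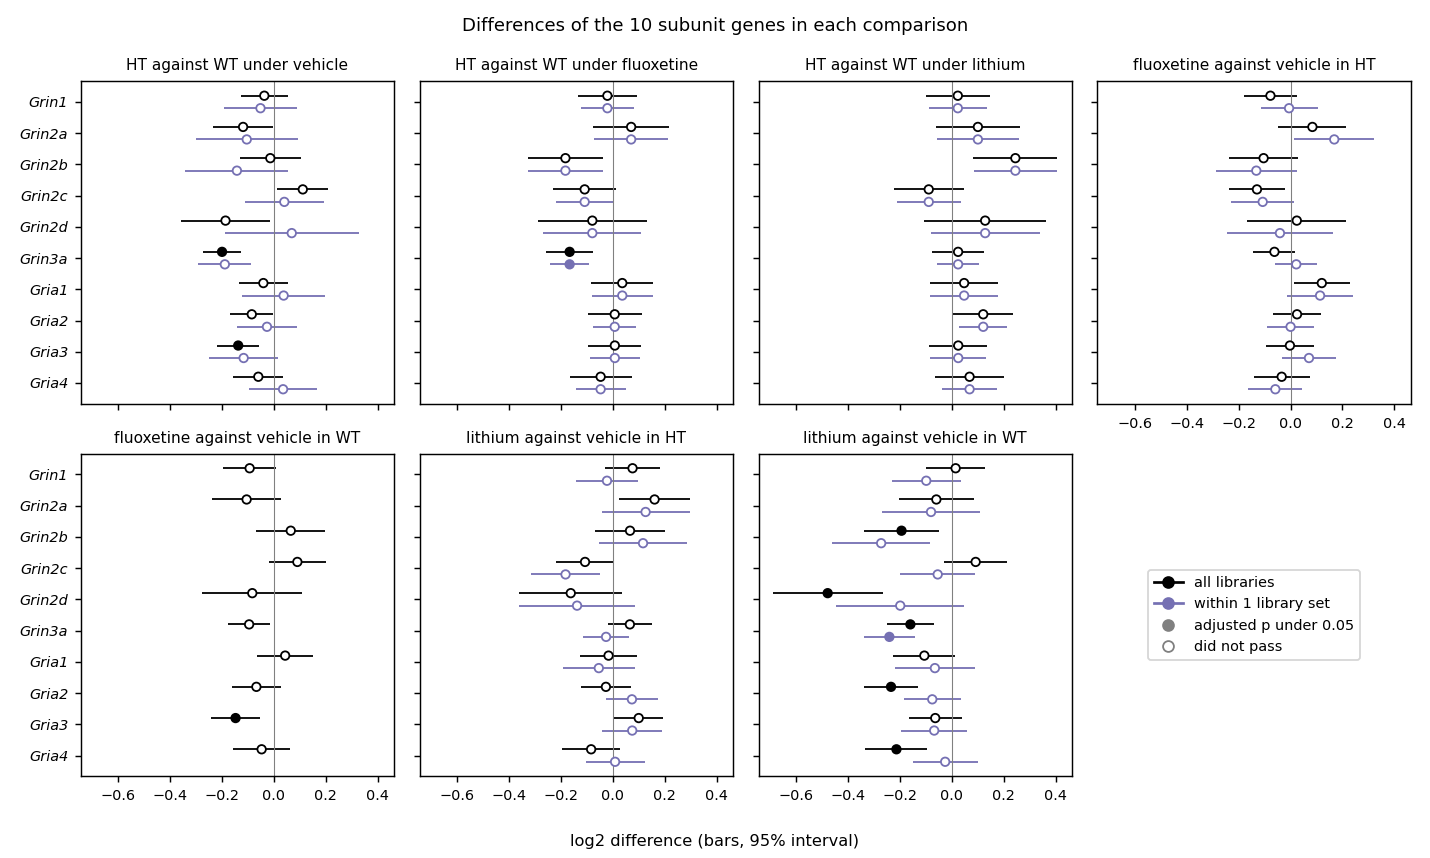
Log2 difference of each subunit gene with its 95% interval in the 7 comparisons that join both sexes, over all libraries (black) and within 1 library set (purple), where filled points passed an adjusted p of 0.05. Grin3a is filled in HT against WT under vehicle (-0.20) and under fluoxetine (-0.17), and of the 5 filled members for lithium in WT only Grin3a (-0.24) is filled within set 2.

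Fluoxetine was compared with vehicle in each genotype. In HT mice no member passed, beside 1.22% of all genes, with 2 members and 2450 genes at an unadjusted p under 0.05, and edgeR called 0. Gria1 had 10564 ± 885 normalized counts in HT fluoxetine libraries (SD, n = 10) and 9726 ± 898 in HT vehicle libraries (SD, n = 16), a difference of 0.12 (limma adjusted p = 0.29). Within set 1 it was 0.11 (adjusted p = 0.51). Grin2c differed by -0.13 (adjusted p = 0.25), Grin2b by -0.10, Grin1 by -0.08, Grin3a by -0.06, Grin2a by 0.08 and Grin2d by 0.02. Gria4 (-0.03), Gria2 (0.03) and Gria3 (-0.0023) lay closest to 0 among the AMPA subunits. In the lists Slc7a10, a transporter of D-serine and other small amino acids, was lower (-0.22, adjusted p = 0.018), and within set 1 it differed by -0.13 and did not pass (adjusted p = 0.41).

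In WT mice Gria3 alone passed, lower under fluoxetine, beside 5.43% of all genes (2.29% lower). Its lowest, median and highest values were 6852, 8656 and 9407 normalized counts in WT fluoxetine libraries, and 8279.5, 9369 and 10872 in WT vehicle libraries. The ranges overlapped. The difference was -0.15 ± 0.05 (limma adjusted p = 0.046), and the call was lost in 14 of 25 fits that left out 1 library. These were WT fluoxetine females 1, 2 and 5 and males 1, 2 and 4, and WT vehicle females 3, 4, 5 and 8 and males 1, 2, 4 and 5. Without them, 1 at a time, the difference lay between -0.15 and -0.12 (limma adjusted p 0.051 to 0.12). The WT fluoxetine libraries are all in set 1 and no WT vehicle library is, so the drug and the set cannot be told apart here. The other members differed by -0.11 for Grin2a, -0.10 for Grin3a, -0.09 for Grin1, -0.08 for Grin2d, 0.09 for Grin2c and 0.06 for Grin2b, and by -0.07 for Gria2, -0.05 for Gria4 and 0.04 for Gria1. Among the lists Cnih2 (-0.24), Cacng2 (-0.18), Neto1 (-0.17), Dlgap1 (-0.13) and Dlg2 (-0.14) were lower, and Adarb1 was higher (0.17, adjusted p = 0.014). In the test of whether the fluoxetine effect differed between HT and WT, no member and no other gene was called (0% called), with 3 members and 2187 genes at an unadjusted p under 0.05. EdgeR too called 0 members, and the fit with marker scores described last called 2. The WT side of this test is the contrast of fluoxetine with vehicle in WT mice, so drug and set cannot be told apart in it either. Among the NMDA subunits the difference of effect, HT minus WT, was 0.19 for Grin2a (95% interval 0.00 to 0.38), -0.22 for Grin2c (-0.37 to -0.06), -0.17 for Grin2b (-0.36 to 0.02), 0.11 for Grin2d, 0.03 for Grin3a and 0.02 for Grin1. Among the AMPA subunits it was 0.15 for Gria3 (0.02 to 0.28), 0.09 for Gria2, 0.08 for Gria1 and 0.01 for Gria4.

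Lithium was compared with vehicle in the same way. In HT mice no member passed, beside 1.52% of all genes, with 2 members and 3022 genes at an unadjusted p under 0.05, and edgeR called 0. Grin2a had the highest difference (0.16, limma adjusted p = 0.20), with 6004 ± 551 normalized counts in HT lithium libraries (SD, n = 9) and 5377 ± 684 in HT vehicle libraries (SD, n = 16). Grin3a differed by 0.07 (95% interval -0.02 to 0.15), and within set 2 by -0.03. Grin2d (-0.16), Grin2c (-0.11), Grin1 (0.08) and Grin2b (0.07) and the AMPA subunits Gria3 (0.10), Gria4 (-0.08), Gria2 (-0.03) and Gria1 (-0.02) did not pass. In the lists Shank2 (0.26), Slc1a2 (0.27) and Abhd6 (0.16) were higher, each with an adjusted p between 0.046 and 0.050. Within set 2 the difference was 0.13 for Shank2, 0.16 for Slc1a2 and 0.08 for Abhd6, and none passed.

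In WT mice 5 of 10 members fell under lithium: Grin2b, Grin2d, Grin3a, Gria2 and Gria4. Over all genes 36.1% were called and 17.5% were lower, a background so high that the count shows nothing particular to the members. Within set 2 only Grin3a of the 10 passed, beside 0.664% of genes (0.234% lower). Among the NMDA subunits, Grin2d had 358, 452 and 554 normalized counts as its lowest, median and highest values in WT lithium libraries. In WT vehicle libraries these were 453, 614 and 958. The ranges overlapped, with 4 of the 8 WT lithium libraries and 4 of the 15 WT vehicle libraries in the shared stretch. The difference was -0.48 ± 0.11 (limma adjusted p = 4.4e-04). Against the WT vehicle libraries of set 2 alone (453, 492, 509, 553 and 632) it was -0.20 (adjusted p = 0.55). The bulb list had medians of 7107 in WT lithium and 7320 in WT vehicle libraries, with highest values of 11938 and 35516. With the bulb score as a covariate Grin2d differed by -0.38 (adjusted p = 8.0e-05).

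Grin2b had 12084, 17041 and 21060 normalized counts as its lowest, median and highest values in WT lithium libraries, and 13308, 19386 and 22297 in WT vehicle libraries. The groups overlapped over most of their range. The difference was -0.19 ± 0.07 (limma adjusted p = 0.033). It did not pass without WT lithium female 5 (-0.13, adjusted p = 0.13), WT lithium male 2 (-0.13, adjusted p = 0.22) or WT vehicle male 4 (-0.18, adjusted p = 0.051). Within set 2 it was -0.27 (adjusted p = 0.18).

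Grin3a had 1335, 1594 and 1718 normalized counts as its lowest, median and highest values in WT lithium libraries, and 1448.5, 1792 and 1890 in WT vehicle libraries. The difference was -0.16 ± 0.04 (limma adjusted p = 0.0045). Within set 2 all 8 WT lithium libraries lay below the 5 WT vehicle libraries, whose lowest value was 1792, and the difference was -0.24 ± 0.05 (adjusted p = 0.0066). These 5 libraries are the same ones that HT vehicle libraries were compared with in set 2, so the 2 results are not independent. Without WT lithium male 2, the library at 1335, the differences were -0.12 over all libraries (adjusted p = 0.061) and -0.20 within set 2 (adjusted p = 0.060). Within set 2 the call was also lost without WT vehicle male 6 (-0.25, adjusted p = 0.052) or WT vehicle male 7 (-0.23, adjusted p = 0.090). By sex, the difference over all libraries was -0.05 in females (adjusted p = 0.63) and -0.27 in males (adjusted p = 0.0042). The difference between the sexes, male minus female, was -0.22 ± 0.09 and did not pass (adjusted p = 0.82).

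Of the AMPA subunits, Gria2 had 14879, 15847 and 17694 normalized counts as its lowest, median and highest values in WT lithium libraries. In WT vehicle libraries it had 15813, 18740 and 22179. The difference was -0.23 ± 0.05 (limma adjusted p = 4.4e-04), and within set 2 it was -0.07 (adjusted p = 0.63). Gria4 had 2760, 3005 and 3117 in WT lithium libraries and 2843, 3324 and 4342 in WT vehicle libraries. Its difference was -0.21 ± 0.06 (adjusted p = 0.0044), and within set 2 it was -0.03 (adjusted p = 0.93). In both genes the WT vehicle libraries above the lithium range came from set 3. The members not called were Gria1 (-0.11), Gria3 (-0.06), Grin2a (-0.06), Grin1 (0.02) and Grin2c (0.09).

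The library sets themselves were compared among WT vehicle libraries, set 3 over set 2, where 42.4% of all genes were called. There 6 of 10 members passed. Gria2 (0.23, limma adjusted p = 2.6e-04), Gria4 (0.27, adjusted p = 2.2e-04) and Grin2d (0.40, adjusted p = 0.0044) were higher in set 3. Grin1 (-0.17, adjusted p = 0.023), Grin2c (-0.21, adjusted p = 0.010) and Grin3a (-0.13, adjusted p = 0.021) were lower in set 3. Among HT vehicle libraries, set 1 over set 2, Grin3a alone passed (-0.18, adjusted p = 0.029), beside 1.62% of all genes. The sets were drawn from pseudogene levels and no member entered that step. The pseudogene levels came from these same libraries, however. These p-values therefore compare groups made to differ, and they only describe the sets.

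**Figure D5:**
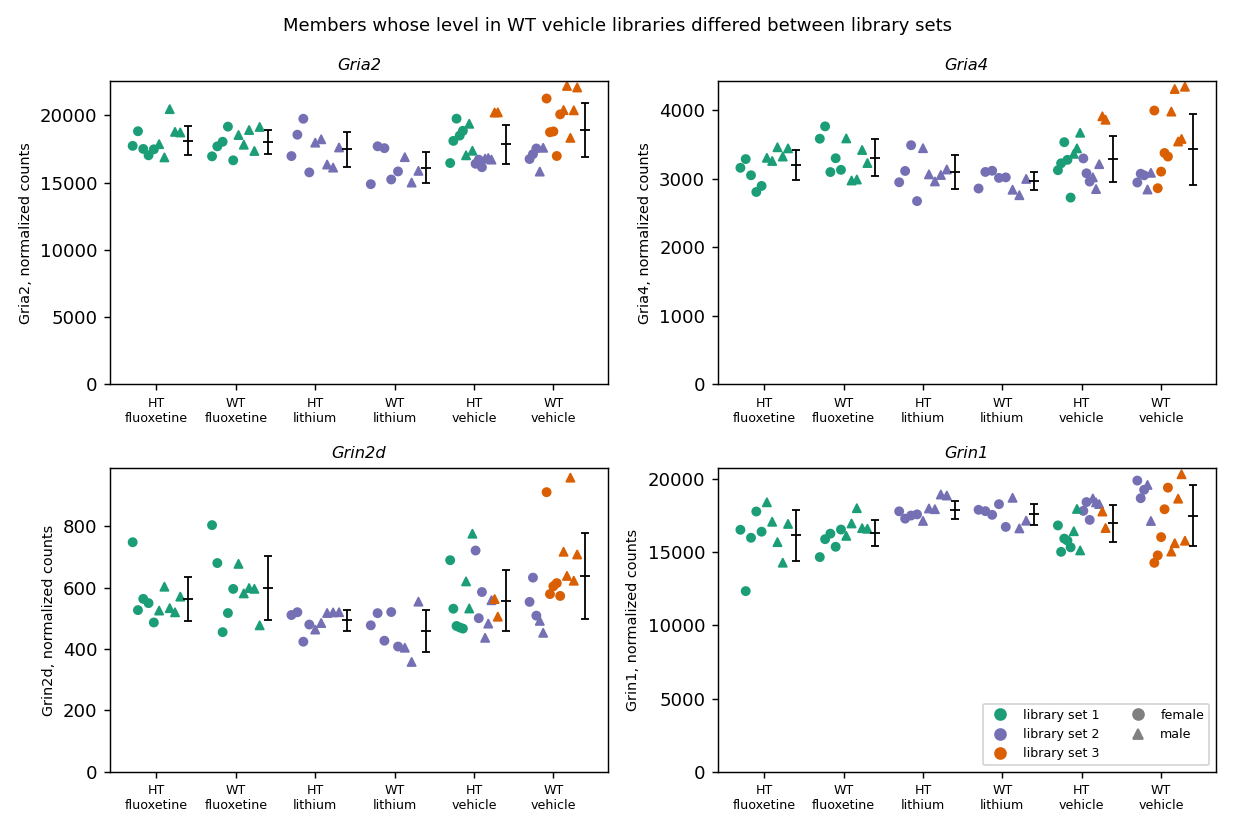
Gria2, Gria4, Grin2d and Grin1 in normalized counts in each library by genotype and drug, coloured by library set, with circles for females, triangles for males and the mean ± SD beside each column. Among WT vehicle libraries those of set 3 average 19914 for Gria2 and 692 for Grin2d, above the 16957 and 528 of set 2.

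The lithium effect was also compared between HT and WT mice. Grin3a alone of the members passed, with a difference of 0.22 ± 0.06 (HT effect minus WT effect, limma adjusted p = 0.037), beside 2.80% of all genes. The lithium difference was 0.07 in HT and -0.16 in WT mice. Within set 2 the difference of effects was 0.21 ± 0.07 and did not pass (adjusted p = 0.37), as for 0% of all genes. There Grin3a averaged 1833 in the 5 WT vehicle libraries. It averaged 1608 in HT vehicle, 1578 in HT lithium and 1569 in WT lithium libraries. The same 5 libraries thus enter this difference, that of genotype under vehicle and that of lithium in WT mice. Over all libraries the call was lost in 12 of 48 fits that left out 1 library, with differences of effect between 0.18 and 0.23 (limma adjusted p 0.051 to 0.18). The libraries were HT lithium females 1 and 3 and males 1 and 2, HT vehicle female 1 and male 3, WT lithium females 1 and 5 and male 2, and WT vehicle female 5 and males 2 and 5. The lowest difference came without WT lithium male 2. The difference of Gria2 passed without HT vehicle male 2 (0.22, adjusted p = 0.0495) or WT vehicle male 6 (0.23, adjusted p = 0.028). Grin2b (0.26, adjusted p = 0.12) and Gria2 (0.21, adjusted p = 0.084) did not pass, nor did Grin2d (0.32), Grin2a (0.22), Grin2c (-0.20), Gria3 (0.16), Gria4 (0.13), Gria1 (0.09) and Grin1 (0.06). In the lists Grik2 (0.27), Grm5 (0.26), Grm7 (0.18) and Neto1 (0.27) had positive differences of effect that passed over all libraries, each with an adjusted p between 0.031 and 0.046. None passed within set 2, where no gene of the table did, and the differences there were 0.17 for Grik2, 0.24 for Grm5, 0.22 for Grm7 and 0.21 for Neto1.

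With the 8 marker scores as covariates, more members passed in 6 comparisons, and more genes did over the whole table. In HT against WT under vehicle 4 members passed, beside 23.7% of all genes. Grin2a (-0.18), Grin3a (-0.12) and Gria3 (-0.18) were lower there and Grin2c (0.19) was higher. Under fluoxetine 0 members passed, beside 2.65% of genes. Under lithium Grin2b (0.22), Grin2d (0.25) and Gria4 (0.12) were higher in HT, 3 members beside 11.6% of genes. For fluoxetine in WT mice 5 members passed, beside 26.0% of genes. Gria3 (-0.19), Grin2a (-0.16), Gria2 (-0.14) and Gria4 (-0.10) were lower and Grin2c (0.19) was higher. For lithium in WT mice 8 members passed, beside 41.3% of genes, and of these Grin2c alone was higher (0.12). For the difference of the fluoxetine effect between HT and WT, Grin2a (0.26) and Gria3 (0.18) passed, beside 1.41% of genes. In this difference and in fluoxetine in WT mice, drug and library set cannot be told apart. For that of the lithium effect 8 members passed, beside 18.9% of genes. Of the 8, Grin2a (0.28), Gria3 (0.22) and 5 others had positive differences and Grin2c a negative one (-0.22). The 8 scores include that of the interneuron list, which Grin2d follows, though Grin2d runs against Lhx6, Pvalb and Sst of that list. They also include those of the oligodendrocyte precursor, endothelial and astrocyte lists, which Grin2c follows. What the scores take out of each value was not tested.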

How the data were processed

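Libraries of polyadenylated RNA were stranded per the labels' protocols. The authors deposited 1 table whose signal values are gene read counts divided by 1 factor per library. Per the submitters' processing notes, the tools were Salmon 0.11.2, R 3.6.0 and DESeq2 1.19.11 and the build GRCm38. Whether counting used strand is not given in the sources used here. Values were whole multiples of 1 step (100% within 0.01), so reads were recovered. The planned edgeR test became limma because the values are normalized.

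limma 3.58.1 (R 4.3.3, trend, robust) was run on log2(value + 1) with 12 groups in 1 fit, for 17922 genes with a mean of at least 5. P-values were adjusted by Benjamini-Hochberg over all tested genes. A comparison of both sexes averages the contrast of females and that of males. Folds on this scale understate low genes. edgeR 4.0.16 and DESeq2 1.42.0 on recovered reads, TMM scaling, a pseudocount of 5, no filter, a replicate block, marker covariates, fits within 1 library set and leave-one-out fits were alternatives. The code was tested on simulated data. Library sets came from average linkage on 1 minus Pearson's r.

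Members and lists were chosen with earlier results of these data known. The rule names all 10 members in every comparison (as a range for the sex difference) and up to 3 genes of a list with the smallest p. List genes named beyond 3 were chosen after their values were seen. Symbols, positions and exon lengths are from GENCODE vM21 on GRCm38, 1-based. Not every gene that the rules select is reported here.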

Additional observations from a re-analysis of the deposited data

Results flagged for a closer look

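Each member was checked in each group of 4 to 8 libraries, which made 110 checks. In 3 of them a library lay apart from the rest of its group by Dixon's criterion, which chance gives in about 1 of 20 checks. Grin3a stood at 1578.5 normalized counts in HT fluoxetine female 1, against 1270 to 1311 in the other 4 libraries of its group. Grin2d stood at 910.7 normalized counts in WT vehicle female 1, with the other 7 between 509 and 632. Gria4 stood at 3995 in the same library, with the other 7 between 2862 and 3376. WT vehicle female 1 had the fourth highest olfactory bulb sum of the 68 libraries (34102), and the part of this in its values was not tested. The lithium effect on Grin3a differed between HT and WT by 0.22 on the log2 scale, by the limma test of the difference over all libraries.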

How the results depend on the processing

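TMM scaling, edgeR, a pseudocount of 5 and no filter on low values left every count of members called as it was, and DESeq2 did so except for 2 members in place of 1 for the difference of the lithium effect between HT and WT. Over all alternatives but the leave-one-out fits, the 12 called values (10 of members, and Cnih3 and Adarb1 for genotype under fluoxetine) kept their direction in 107 of 107 and were still called in 98, and 621 alternatives of 70 uncalled values gave 28 calls and 33 other directions. Those 33 were within 0.13 of 0 on the log2 scale. Single values of the fluoxetine difference and the sex difference were not followed. The cause of these changes was not tested.

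With the 8 marker scores, 4 members were called for genotype under vehicle, 0 under fluoxetine and 3 under lithium, 5 for fluoxetine in WT, 8 for lithium in WT, 2 for the difference of the fluoxetine effect and 8 for that of the lithium effect. The sign turned for Grin2b (0.0035), Grin2d (0.021) and Gria1 (0.0075) in HT against WT under vehicle. It turned for Grin1 (0.10), Grin2c (0.057), Grin2d (0.12), Gria2 (-0.024) and Gria3 (-0.00026) in HT against WT under fluoxetine. For fluoxetine in HT it turned for Grin1 (0.019), Grin2c (0.058), Grin3a (0.013) and Gria2 (-0.086), for fluoxetine in WT for Grin2b (-0.0091), and for the lithium difference for Gria1 (-0.00087).

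Within 1 library set, 0 members were called for genotype under vehicle, 1 for lithium in WT and 0 for the lithium difference, with fewer libraries. Fluoxetine in WT and the fluoxetine difference have no such value, since no set holds WT libraries of both treatments. Signs turned for Grin2d (0.068), Gria1 (0.037) and Gria4 (0.035) in genotype under vehicle, for Grin2d (-0.041), Grin3a (0.022) and Gria3 (0.071) in fluoxetine in HT, for Grin1 (-0.022), Grin3a (-0.026), Gria2 (0.074) and Gria4 (0.0087) in lithium in HT, and for Grin1 (-0.098) and Grin2c (-0.054) in lithium in WT.

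Replicate numbers did not pair the libraries: 19 of 69 same-numbered pairs, and every pair in 0 of 14 comparisons of a sex, had r over 0.1. With the replicate number as a block 2 members were called for fluoxetine in WT, 3 for lithium in HT and 2 for the lithium difference, and signs turned in fluoxetine in HT for Grin2d (-0.047), Gria2 (-0.045) and Gria3 (0.0075). The bulb score as a covariate was chosen after seeing the data. With it 3 members were called for the lithium difference, and signs turned for Grin2d (-0.053) and Gria3 (0.028) in fluoxetine in HT, Gria1 (0.042) in lithium in HT and Grin1 (-0.020) in lithium in WT.

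Leaving out 1 library at a time gave 2 to 4 members called for genotype under vehicle, 0 to 1 under fluoxetine and 0 to 1 under lithium. It gave 0 to 0 for fluoxetine in HT, 0 to 1 for fluoxetine in WT, 0 to 0 for lithium in HT, 3 to 5 for lithium in WT, 0 to 2 for the lithium difference and 0 to 0 for the sex difference. No called value turned its sign. The uncalled values that did ranged from -0.043 to 0.0025 for Grin2b in genotype under vehicle. Under fluoxetine genotype values ranged from -0.043 to 0.022 for Grin1, -0.011 to 0.024 for Gria2 and -0.021 to 0.031 for Gria3. Under lithium they ranged from -0.0036 to 0.057 for Gria3, -0.018 to 0.051 for Grin3a and -0.0021 to 0.078 for Gria1. For fluoxetine in HT Grin2d ranged from -0.025 to 0.059 and Gria3 from -0.028 to 0.0094. For lithium in HT Gria1 ranged from -0.034 to 0.0025 and Gria2 from -0.053 to 0.0013, and for lithium in WT Grin1 ranged from -0.0095 to 0.034.

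The groups hold 3 to 8 libraries each. The 95% intervals reached between 0.072 and 0.34 to either side of a member's difference on the log2 scale. A difference smaller than the reach of its own interval could not be told from 0. Calls used an adjusted p under 0.05, which asks for more than an interval that leaves out 0. The 3 sets overlap with drug and, among vehicle libraries, with genotype. Set 2 holds 2 WT vehicle males. The effect of read depth on the members was not tested.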
